A study of Mus musculus with 3 samples.

Results

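The 4 syndecans (Sdc1, Sdc2, Sdc3 and Sdc4) and 5 of the glypicans (Gpc1, Gpc3, Gpc4, Gpc5 and Gpc6) were measured across the epithelial, endothelial, fibroblast and mural cells of the aged mouse thymus. These 9 genes were taken by name from 32293 features, of which 10 are syndecans or glypicans (Gpc2 was not a member). For each of them the level in CPM (the UMIs of the gene scaled to a common total of UMIs) and the share of barcodes with at least 1 UMI were taken per library and cell class.

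Single-cell RNA-seq (10x Chromium, 3′ ends) was performed on CD45- thymic stroma of untreated C57BL/6 mice aged 20 months, digested, depleted of CD45+ cells and sorted. There were 3 libraries, 1 for each group: Foxn1Lin female, Foxn1Lin male and wild type male, and values are given in this order throughout. Foxn1Lin is a Foxn1 lineage trace, in which a Cre under Foxn1 control marks cells with a history of Foxn1 expression. The mark itself was not used to assign cells. The protocol describes a pool of 10 to 15 thymi from females for every library, whereas the sex label of 2 libraries is male. The cell type label of the wild type library also names PECAM1+, while its title does not, and endothelial barcodes were 22.4%, 23.8% and 16.3% of the kept barcodes. With 1 library per group there was no test between groups, and genotype, sex and library cannot be told apart.

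The libraries held 8616, 3583 and 5478 called barcodes with 53366016, 33386621 and 61258534 UMIs, and medians of 4675, 7431 and 7947 UMIs per barcode. The Foxn1Lin female library stood apart in depth and in free RNA, with 26.5% of its UMIs outside called barcodes against 12.9% and 9.46%. Between 3 and 14 barcodes were shared between pairs of libraries. Barcodes were assigned by the UMIs of single marker genes: thymic epithelial cells (TEC) by Epcam (at least 2), endothelial cells (EC) by Pecam1 (at least 2), fibroblasts (FB) by Pdgfra (at least 2) and mural cells by Rgs5 plus Acta2 (at least 5). Barcodes passing the gates of more than 1 class were dropped (529, 173 and 430), which left 475, 427 and 871 TEC, 1903, 818 and 859 EC, 1875, 864 and 1713 FB, and 433, 449 and 355 mural barcodes. With the gating genes left out, the remaining markers of each class summed to 6111 to 7419 CPM (TEC), 4280 to 4679 CPM (EC), 12792 to 16352 CPM (FB) and 5785 to 7287 CPM (mural) in their own class, with none at 0. In the other classes they summed to at most 399, 247, 1306 and 136 CPM, and the FB markers were highest there in mural cells (1306, 1132 and 1137 CPM). All intervals given below cover counting error only.

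Syndecans and glypicans are core proteins that carry heparan sulfate (HS) chains at the cell surface. Syndecans span the membrane and end in a short cytoplasmic tail that binds PDZ proteins such as syntenin, whereas glypicans are held to the outer leaflet by a lipid anchor. Through their chains both families bind growth factors, morphogens and chemokines and act as coreceptors, and in the thymus such ligands include the fibroblast growth factors that act on TEC.

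The 4 syndecans share the end of their coding sequence. The last 39 coding bases before the stop codon are shown here because they encode the shared PDZ-binding end that sets syndecans apart from glypicans, and because the gene for syntenin, Sdcbp, is among the partner genes measured below. Capitals mark the 13 positions at which all 4 genes carry the same base (GENCODE coding sequence, GRCm38, 5′ to 3′).
Sdc1 (chr12:8791766-8791804, plus strand): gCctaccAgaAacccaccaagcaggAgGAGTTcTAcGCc
Sdc2 (chr15:33032499-33032537, plus strand): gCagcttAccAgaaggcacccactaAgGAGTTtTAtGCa
Sdc3 (chr4:130822768-130822806, plus strand): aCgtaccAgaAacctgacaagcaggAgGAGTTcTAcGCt
Sdc4 (chr2:164426089-164426127, minus strand): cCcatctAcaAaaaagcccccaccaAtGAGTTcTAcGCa

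The syndecan genes lie on chromosomes 12, 15, 4 and 2. The glypican genes lay in neighbouring pairs: Gpc4 (chrX:52053021-52165252) and Gpc3 (chrX:52272426-52613950) were 107 kb apart, and Gpc5 (chr14:115092215-116525179) and Gpc6 (chr14:116925315-117976544) were 400.1 kb apart, with 0 protein-coding genes between the members of either pair. Gpc1 lies on chromosome 1 (chr1:92831645-92860779). The closest coding sequences were not those of the neighbours: Gpc4 and Gpc6 shared 67.7% of bases (of the shorter sequence), against 54.7% for Gpc3 and Gpc4 and 53.9% for Gpc5 and Gpc6. Gpc5 and Gpc6 span 1433 and 1051 kb, and the others 19.6 to 342 kb. Genes annotated on the other strand overlap Sdc3, Gpc1, Gpc3, Gpc5 and Gpc6, and some of those at Sdc3, Gpc1, Gpc3 and Gpc5 were counted as separate features.

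The 9 genes divided between TEC and FB, and most were lowest in EC. By the mean of the 3 libraries, TEC had the highest level of Sdc1, Sdc4, Gpc1 and Gpc5, FB that of Sdc2, Gpc3, Gpc4 and Gpc6, and EC that of Sdc3 only. EC had the lowest level of 6 of the 9 members. The same class was highest in all 3 libraries for 7 members, in 2 libraries for Gpc4 and in 1 library for Sdc1. The range from the lowest to the highest class mean was narrowest for Gpc4 (3.13-fold) and widest for Gpc5 (124-fold).

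**Figure D1:**
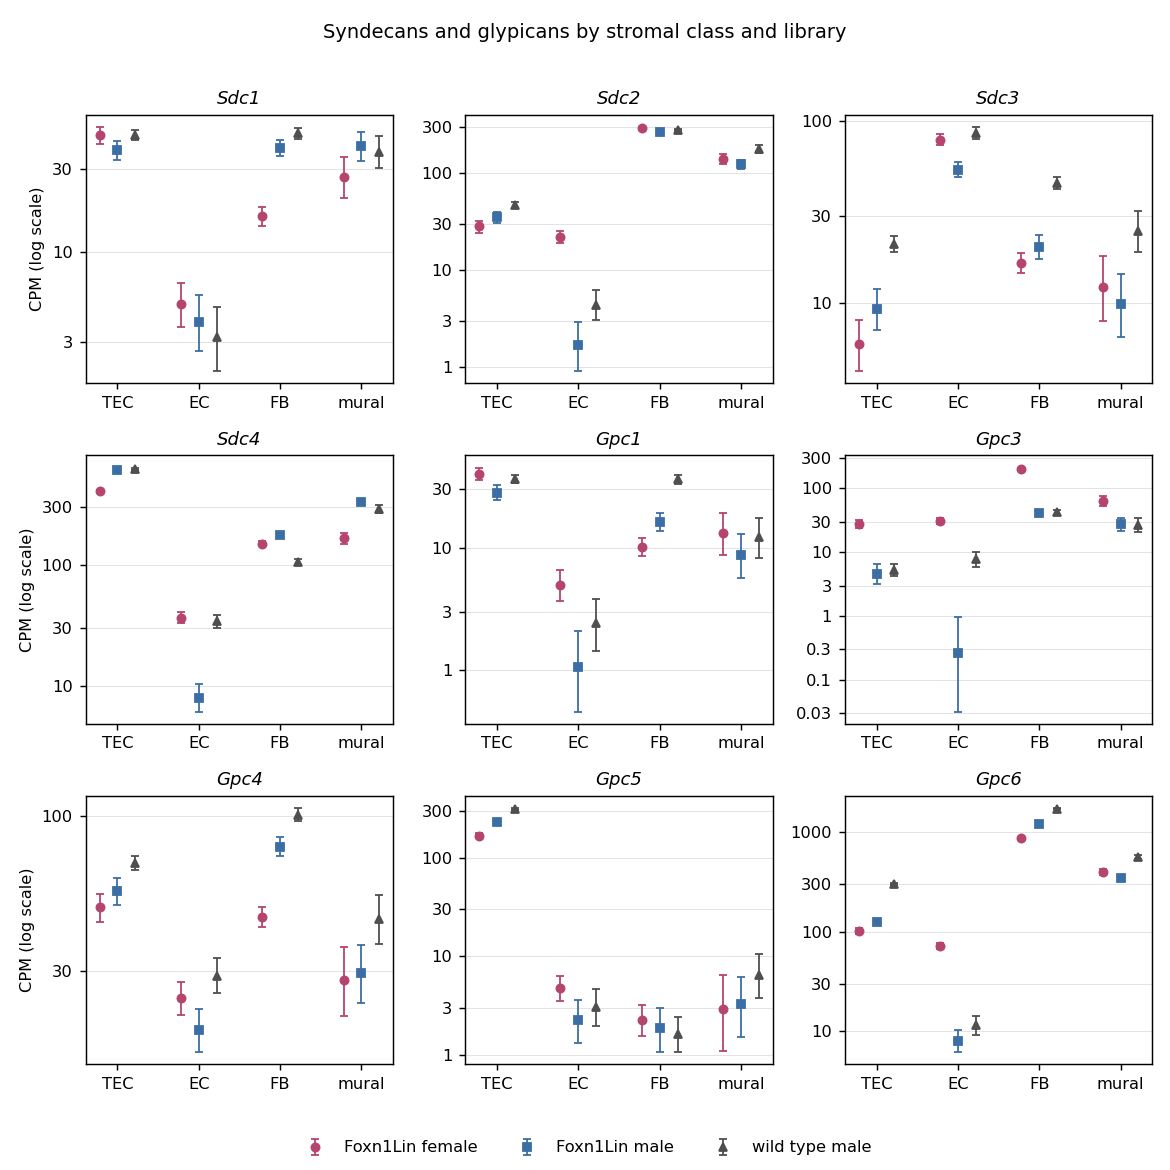
Level of each syndecan and glypican (CPM, log scale, scale set per panel) in TEC, EC, FB and mural barcodes; each point is 1 library and bars are 95% exact Poisson intervals of the count. The TEC points of Gpc5 (169 to 312 CPM) sit far above those of every other class (at most 6.53 CPM), and the FB points of Gpc6 (885 to 1731 CPM) above those of every other class.

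To compare the classes, counts were summed per library and class and fitted with edgeR's quasi-likelihood test with the library as a block, with Benjamini-Hochberg adjustment over the 16617 genes tested. All 9 members passed the filter on low counts. Every adjusted p-value given for a class is from this fit, n is 3 libraries in each class, and the p-values measure only the spread between these libraries, which differ in genotype and sex label. Between TEC and EC, 7 of 9 members were called higher in TEC (30.8% of all genes tested were) and 1 lower (26.6%), and 57.4% of all genes were called in either direction. Between TEC and FB, 2 were higher in TEC (29.5% of all genes) and 5 lower (26.6%), with 56.1% of all genes called in either direction. Between TEC and mural cells 2 were higher (26.3% of all genes) and 2 lower (24.2%), with 50.5% called. Between EC and FB, 1 was higher in EC (20.9% of all genes) and 7 lower (21%), with 42% called. Between EC and mural cells 1 was higher (19.8% of all genes) and 6 lower (19.9%), with 39.8% called. Between FB and mural cells 1 member was called higher in FB (14.9% of all genes) and 0 lower (15.1%), with 30% called. The median log2 fold change of the 9 members was 2.27 for TEC over EC, -2.81 for EC over FB and -2.14 for EC over mural cells, beside 0.07, 0.05 and 0.02 over all genes tested. For TEC over FB, TEC over mural cells and FB over mural cells it was -0.66, 0.04 and 0.85, beside 0.05, 0.09 and 0.00. The scaling set the balance of all genes in the comparisons with TEC. Without TMM, 43.0% of all genes were called higher in TEC than in EC and 17.4% lower, 40.9% higher and 17.3% lower than in FB, and 38.2% higher and 16.7% lower than in mural cells, with medians of 0.44, 0.38 and 0.41.

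The 35 called class differences of the members kept their direction under every alternative, but their size depended on several choices. With barcodes of more than 1 class kept, 23 of the 35 were smaller by over 1.5 times, that of Gpc5 in TEC over EC falling to 2.39 on the log2 scale, in TEC over FB to 4.27 and in TEC over mural cells to 2.05. Without the Foxn1Lin female library 12 were larger by over 1.5 times, each a comparison with EC, such as Gpc6 in EC against FB (-7.18) and Sdc2 in EC against mural cells (-5.59). Without Foxn1Lin male 3 were smaller by over 1.5 times: Gpc6 in EC against FB (-4.86) and, in EC against mural cells, Sdc4 (-2.63) and Gpc3 (-1.38). With doubled gates Gpc5 in TEC was at 5.53 over FB and 4.48 over mural cells, and Gpc3 in EC at -4.05 against FB and -2.75 against mural cells. With the highest Scrublet scores removed Gpc6 was at 2.87 in TEC over EC, and in EC at -6.17 against FB and -4.54 against mural cells.

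**Figure D2:**
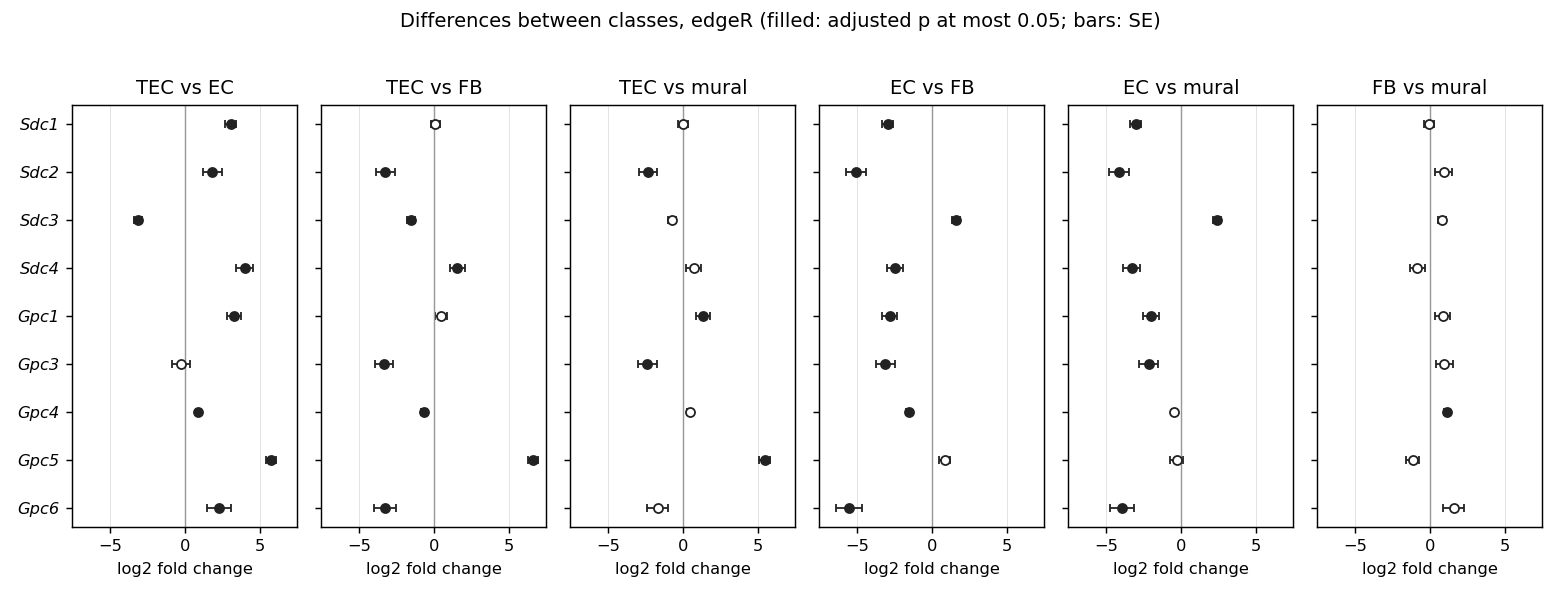
log2 fold change of each member in the 6 comparisons of classes (first class over second), with the standard error (SE) as bars; filled points have an edgeR adjusted p of at most 0.05, n = 3 libraries. In the EC vs FB and EC vs mural panels, Sdc3 alone is filled on the right of 0, while 7 and 6 members are filled on its left.

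Sdc3, a syndecan best known from the nervous system, was highest in EC. Its level was 78.9, 54.0 and 85.8 CPM in EC. TEC stood at 5.89, 9.28 and 21.0 CPM, FB at 16.6, 20.3 and 45.5 CPM and mural cells at 12.3, 9.84 and 24.9 CPM. The lowest EC library lay above the highest library of every other class. The difference was 2.40 ± 0.29 on the log2 scale over mural cells (SE, edgeR adjusted p = 0.000226), 1.60 ± 0.26 over FB (adjusted p = 0.000986) and 3.12 ± 0.28 over TEC, which were lower by that amount (log2 fold change of TEC over EC -3.12, adjusted p = 2.46e-05). FB and mural cells, and mural cells and TEC, were not called different in Sdc3 (edgeR adjusted p = 0.0640 and 0.0669). In EC, 29.4%, 32.6% and 39.9% of barcodes held a UMI of Sdc3, and in TEC, whose median depth was higher (11005 to 16229 against 3892 to 7380 UMIs), 7.16%, 11.0% and 20.8%. Thinned to 2000 UMIs per barcode, the shares were 15.3%, 10.8% and 16.6% in EC and 1.52%, 1.95% and 4.48% in TEC.

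Among EC, Sdc3 was lower in barcodes with much Vwf. Barcodes with at least 3 UMIs of Vwf (82, 221 and 223), which is most abundant in veins, had 32.3, 22.1 and 41.4 CPM of Sdc3. EC that passed neither this gate nor that of the arterial gene Gja5 (at least 1 UMI) had 84.1, 76.4 and 116 CPM. The ratio was 2.60 (95% counting interval 1.75 to 4.04), 3.45 (2.64 to 4.58) and 2.80 (2.27 to 3.47), and in every library the interval lay above 1. The few Gja5 barcodes (32, 21 and 33) had 43.3, 46.4 and 89.9 CPM, from 7 to 26 UMIs. Gpc4 followed the same order, with 5.18, 5.79 and 6.08 CPM in Vwf barcodes and 26.3, 28.3 and 41.5 CPM in those of neither gate (ratio 5.09, 4.89 and 6.83, lowest interval bound 1.96). Empty droplets had 18.2, 32.6 and 46.5 CPM of Gpc4, above the EC of neither gate in both libraries labelled male. Median depth was 7393, 11679 and 10660 UMIs in Vwf barcodes and 3782, 6124 and 5625 UMIs in those of neither gate. The part of free RNA and of depth was not tested. Markers of hematopoietic cells, summed over 5 genes, were 34.9, 5.45 and 50.5 CPM in Vwf EC and 87.8, 70.4 and 204 CPM in EC of neither gate, and the FB markers 384, 61.3 and 79.8 CPM and 949, 74.6 and 170.2 CPM. Their part in these differences was not tested.

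Sdc4, a widespread syndecan found at cell adhesions, was highest in TEC. It stood at 405, 605 and 627 CPM in TEC, 166, 332 and 293 CPM in mural cells, 150.5, 176 and 106 CPM in FB and 36.7, 8.02 and 34.2 CPM in EC. The TEC values lay above those of every other class, and the EC values below. TEC exceeded EC by 4.00 ± 0.56 (log2, SE, edgeR adjusted p = 0.000313) and FB by 1.57 ± 0.51 (adjusted p = 0.0249), while the difference from mural cells was not called (0.73 ± 0.50, adjusted p = 0.251), although TEC were higher in each library. FB exceeded EC by 2.43 ± 0.53 (log2 fold change of EC over FB -2.43, edgeR adjusted p = 0.00534). A UMI of Sdc4 was found in 69.9%, 77.0% and 83.2% of TEC and in 7.09%, 5.75% and 10.4% of EC, and after thinning in 38.96%, 50.2% and 47.3% of TEC and 3.74%, 1.39% and 3.18% of EC. The excess of TEC over FB was not called without the wild type library (1.28, edgeR adjusted p = 0.189).

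Sdc2, a syndecan of mesenchymal cells, was highest in FB, where the 3 libraries lay close together. FB had 292, 269 and 281 CPM and mural cells 142, 124 and 179.5 CPM, while TEC had 28.3, 35.3 and 47.3 CPM and EC 22.0, 1.71 and 4.40 CPM. FB lay above mural cells in each library without overlap, but the fitted difference was not called (0.93 ± 0.57 on the log2 scale, edgeR adjusted p = 0.253). Both exceeded TEC, by 3.23 ± 0.61 and 2.29 ± 0.60 (log2 fold changes of TEC -3.23 and -2.29, edgeR adjusted p = 0.00176 and 0.0109). The call of TEC below mural cells was lost without the wild type library (-2.28, edgeR adjusted p = 0.0836). TEC were called above EC (1.84 ± 0.64, edgeR adjusted p = 0.0335), but not without Foxn1Lin male (1.25), without wild type male (1.37), without the library block (1.62) or with barcodes of more than 1 class kept (0.42).

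Sdc1, the syndecan of epithelia and plasma cells, did not separate the 3 classes other than EC. TEC had 46.7, 38.2 and 47.0 CPM, mural cells 27.0, 40.5 and 37.5 CPM, and FB 16.0, 39.4 and 48.1 CPM, while EC had 4.96, 3.94 and 3.20 CPM. All EC values lay below all others. EC were lower than TEC, FB and mural cells by 3.05 ± 0.37, 2.95 ± 0.37 and 3.01 ± 0.38 on the log2 scale (edgeR log2 fold change 3.05 for TEC over EC, -2.95 for EC over FB and -3.01 for EC over mural cells, adjusted p = 0.00013, 0.000245 and 0.000292). TEC, FB and mural cells overlapped, and none of their 3 pairs was called (edgeR adjusted p = 0.803 to 0.938). Plasma cells could not be described, since only 9, 2 and 4 barcodes outside the classes passed the Jchain gate.

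Gpc5 was far higher in TEC than in any other class. Its level in TEC was 169, 230.1 and 312 CPM, against 4.75, 2.23 and 3.07 CPM in EC, 2.25, 1.85 and 1.64 CPM in FB and 2.94, 3.28 and 6.53 CPM in mural cells. TEC exceeded EC by 5.74 ± 0.34, FB by 6.60 ± 0.35 and mural cells by 5.47 ± 0.36 on the log2 scale (SE, edgeR adjusted p = 3.84e-06, 3.00e-06 and 8.98e-06), and those over FB and EC were the largest differences of any member in the 6 class comparisons. No pair among EC, FB and mural cells was called for Gpc5 (edgeR adjusted p = 0.0783 to 0.643). It was uneven within TEC: a UMI was found in 21.5%, 23.7% and 31.1% of TEC, and in 13.9%, 16.1% and 19.2% after thinning. In FB, at a median depth of 7445 to 9387.5 UMIs, the shares were 1.17%, 1.27% and 1.23%, and the FB level was below that of the empty droplets, 18.2, 38.6 and 76.2 CPM.

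Gpc6, a glypican needed for the growth of limb bones and the closest in coding sequence to Gpc4, was highest in FB. It stood at 885, 1222 and 1731 CPM in FB, 400.0, 348 and 565 CPM in mural cells, 101, 126 and 301 CPM in TEC, with EC at 71.7, 8.02 and 11.5 CPM. The 4 classes kept this order in each library. FB exceeded TEC by 3.25 ± 0.74 and EC by 5.53 ± 0.85 (log2 fold changes -3.25 for TEC over FB and -5.53 for EC over FB, edgeR adjusted p = 0.00464 and 0.000772). The neighbours FB and mural cells (edgeR adjusted p = 0.117) and mural cells and TEC (adjusted p = 0.0739) were not called different, although their ranges did not overlap. EC were below mural cells (-3.94 ± 0.80, edgeR adjusted p = 0.00384), but not without the Foxn1Lin male library (-3.39, adjusted p = 0.0607). EC were also called below TEC (2.27 ± 0.77 for TEC over EC, edgeR adjusted p = 0.0306), though not without Foxn1Lin male (1.77), without wild type male (1.42), with halved gates (2.10, adjusted p = 0.0521) or with barcodes of more than 1 class kept (0.52). A UMI of Gpc6 was found in 85.1%, 92.2% and 90.1% of FB.

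Gpc3, an X-linked glypican that restrains growth, differed widely between libraries. FB had 204, 41.1 and 42.1 CPM, mural cells 62.8, 27.3 and 26.9 CPM, EC 31.1, 0.263 and 7.74 CPM, and TEC 28.0, 4.64 and 5.30 CPM. The Foxn1Lin female library was the highest in every class. FB exceeded TEC by 3.33 ± 0.61 and EC by 3.09 ± 0.61 (log2 fold changes -3.33 and -3.09, edgeR adjusted p = 0.00145 and 0.00308), the call over EC being lost without the library block (-2.86, adjusted p = 0.0809), while FB and mural cells (0.95 ± 0.58, edgeR adjusted p = 0.251) and EC and TEC (adjusted p = 0.761) were not called different. Mural cells exceeded EC and TEC by 2.14 ± 0.63 and 2.38 ± 0.63 (log2 fold changes -2.14 and -2.38, edgeR adjusted p = 0.0246 and 0.0117); both calls were lost without the wild type library (-2.41 and -2.21, adjusted p = 0.126 and 0.117), without the library block (-1.52 and -1.94) and with barcodes of more than 1 class kept (-1.29 and -1.19). The EC values rested on few barcodes: in the wild type library 1 barcode held 79.3% of the 58 UMIs, and in the Foxn1Lin male library there were 2 UMIs in all.

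Gpc4, the X-linked neighbour of Gpc3, had the flattest profile. Its level was 45.6, 78.9 and 101 CPM in FB, 49.2, 55.9 and 69.4 CPM in TEC, 28.0, 29.5 and 44.9 CPM in mural cells and 24.3, 18.9 and 29.0 CPM in EC. FB exceeded mural cells by 1.13 ± 0.19 on the log2 scale (edgeR adjusted p = 0.00236), and EC by 1.55 ± 0.19 (log2 fold change of EC over FB -1.55, adjusted p = 0.000191). In the main fit Gpc4 was the only member called between FB and mural cells. Without Foxn1Lin female 6 members were called there, and 5 with barcodes of more than 1 class kept. FB were called above TEC by a small margin (-0.66 ± 0.18 for TEC over FB, edgeR adjusted p = 0.0120), although TEC were higher in the Foxn1Lin female library, and this call was lost without Foxn1Lin male (-0.60), without wild type male (-0.57), without the library block (-0.69) and without TMM scaling (-0.33).

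Gpc1, a widely expressed glypican, was lowest in EC. TEC had 40.2, 28.3 and 36.4 CPM, FB 10.2, 16.3 and 36.2 CPM, mural cells 13.3, 8.75 and 12.2 CPM and EC 4.96, 1.05 and 2.40 CPM. TEC exceeded EC by 3.28 ± 0.49 (log2, SE, edgeR adjusted p = 0.000426), and FB exceeded EC by 2.81 ± 0.49 (log2 fold change of EC over FB -2.81, adjusted p = 0.00164). TEC and FB overlapped and were not called different (0.47 ± 0.42, edgeR adjusted p = 0.368). TEC exceeded mural cells by 1.32 ± 0.47 (edgeR adjusted p = 0.0424), and mural cells exceeded EC by 1.96 ± 0.54 (log2 fold change -1.96, adjusted p = 0.0173). These last calls were each lost without Foxn1Lin male (1.30 and -1.69) and without wild type male (1.39 and -1.83), and that of TEC over mural cells also without the library block (1.31, edgeR adjusted p = 0.0576) and with barcodes of more than 1 class kept (0.50, edgeR adjusted p = 0.289).

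Several low values lay below the level of free RNA, and some in EC followed the library order of FB markers. In empty droplets Sdc2 stood at 66.0, 75.7 and 100.0 CPM, Gpc3 at 69.8, 14.7 and 27.1 CPM and Gpc6 at 95.4, 133 and 289 CPM, in each library above the EC level of the same gene. For Sdc2 and Gpc3 they were above the TEC level in each library too. Sdc1 was at 23.4, 39.5 and 43.8 CPM in empty droplets, above EC in each library, above FB and TEC in 2 and 1 of the 3, and above mural cells in wild type male. For Gpc6 the empty droplets were also close to TEC (101, 126 and 301 CPM). Sdc4 was at 87.6, 227 and 357 CPM in empty droplets, above FB in both libraries labelled male and above mural cells in wild type male, and below TEC in each library. Gpc1 was at 23.6, 19.8 and 48.5 CPM there, above FB and mural cells in each library and above TEC in wild type male. Gpc4 was at 18.2, 32.6 and 46.5 CPM in empty droplets. This was above EC and mural cells in both libraries labelled male, and below FB and TEC in each library. In EC the sum of 6 FB markers (Pdgfra, Col1a1, Col1a2, Col3a1, Dcn and Lum, none at 0 in the Foxn1Lin female library) was 888, 66.8 and 130 CPM, and that of 5 mesothelial markers 126, 1.18 and 19.6 CPM. Sdc2, Sdc4, Gpc1, Gpc3, Gpc5 and Gpc6 in EC followed the same order, highest in Foxn1Lin female and lowest in Foxn1Lin male. So did the sum of 5 TEC markers in EC, with Epcam left out (345, 141 and 234 CPM). Sdc1, Sdc3 and Gpc4 in EC did not follow this order. Empty droplets had their lowest Sdc2 and Gpc6 in Foxn1Lin female, where EC had their highest. The part of free RNA and of these markers in these values was not tested. Sdc3 was at 31.0, 24.3 and 52.4 CPM in empty droplets, below its level in EC and above its level in TEC, FB and mural cells in each library.

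TEC were split further by single genes: cortical-type barcodes by Psmb11 (at least 2 UMIs), Aire-expressing medullary barcodes by Aire (at least 2), Ccl21a barcodes by Ccl21a (at least 10), Plet1 barcodes by Plet1 (at least 2) and the remaining TEC, which passed none of these gates. The subsets held 63, 9 and 59 (Psmb11), 114, 64 and 152 (Aire), 40, 61 and 88 (Ccl21a), 26, 47 and 91 (Plet1) and 206, 224 and 443 barcodes (other). Another 26, 22 and 38 TEC barcodes passed more than 1 of these gates and were left out. Psmb11 encodes a proteasome subunit of cortical TEC, and Aire drives the display of tissue antigens in medullary TEC. Ccl21a encodes a chemokine of immature medullary TEC, and Plet1 is known from embryonic thymic epithelial progenitors. Each subset was compared with the mean of the other 4 in 1 edgeR fit over 14 sums and 14135 genes, with the library as a block. The Psmb11 subset of Foxn1Lin male, with 9 barcodes, was left out of the fit.

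**Figure D3:**
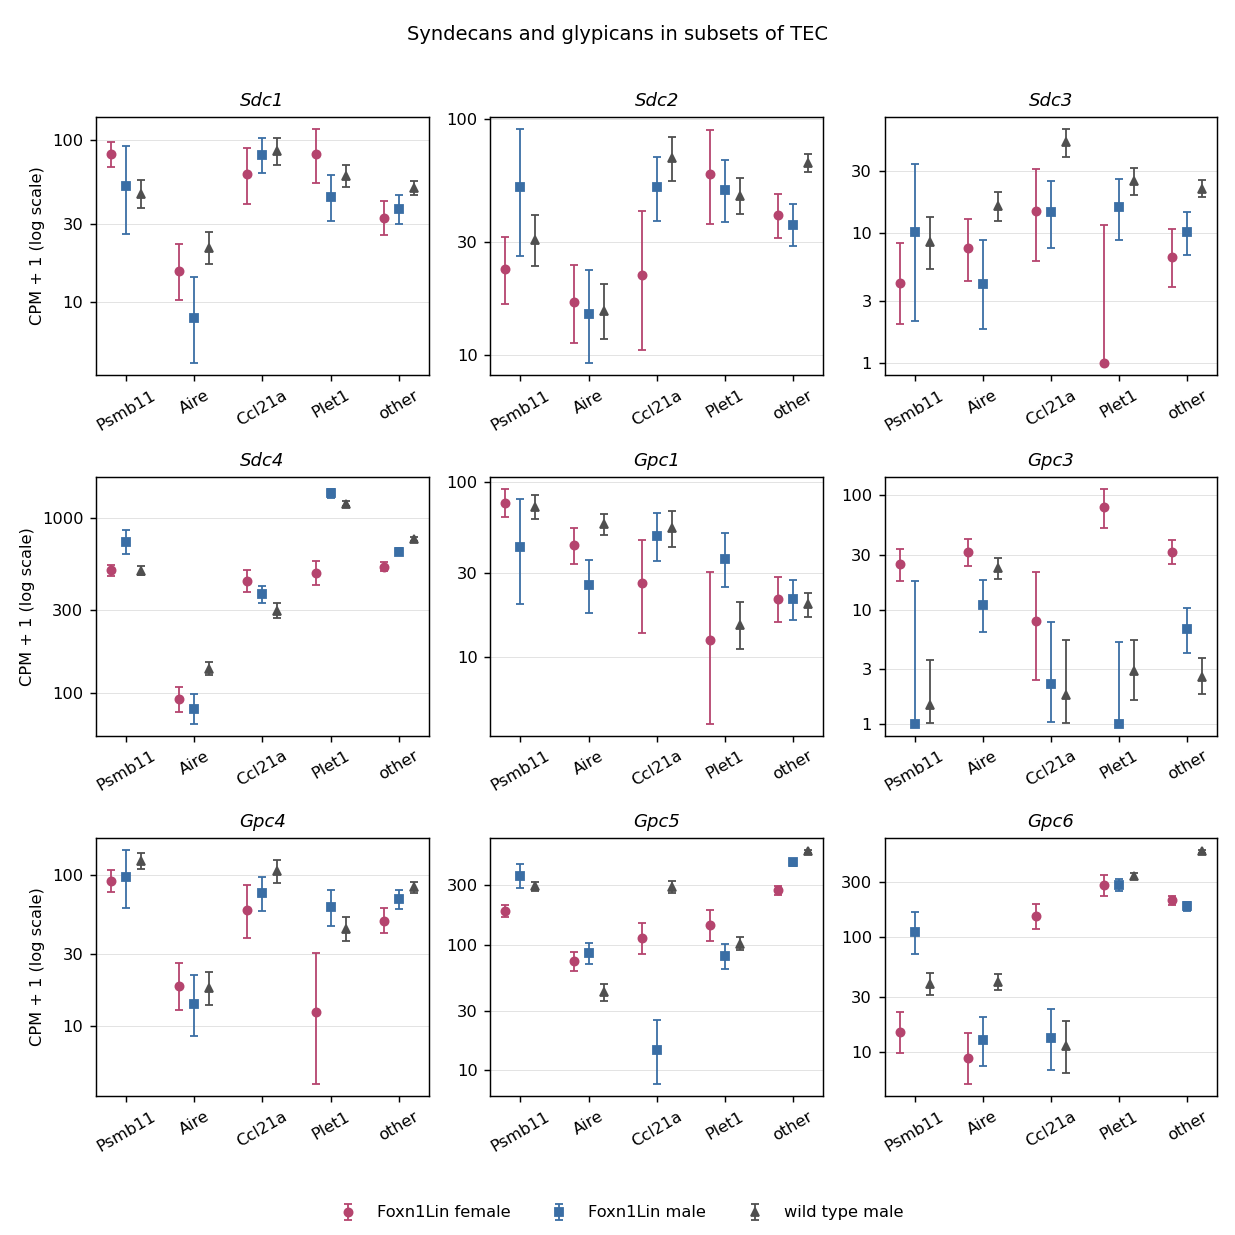
Level of each member (CPM + 1, log scale, scale set per panel) in subsets of TEC defined by Psmb11, Aire, Ccl21a or Plet1 and in the other TEC; each point is 1 library and bars are 95% exact Poisson intervals. The 3 Aire points of Sdc4 (80.8 to 138 CPM) lie below those of every other subset, and the points of Psmb11 barcodes of Foxn1Lin male rest on 9 barcodes.

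Aire TEC had the lowest levels of Sdc1, Sdc2 and Sdc4 among the TEC subsets. In this subset 5 members were called lower (20.5% of all genes were) and 1 higher (25.8%), with 46.3% of all genes called in either direction, and the median log2 fold change of the 9 members was -1.44 beside 0.05 over all genes. Sdc4 was at 91.3, 80.8 and 138 CPM, against 295 to 1379 CPM in the other subsets, and fell by 2.50 ± 0.32 on the log2 scale (SE, edgeR adjusted p = 7.99e-05). Sdc1 was at 14.5, 6.92 and 20.6 CPM (-1.96 ± 0.31, edgeR adjusted p = 0.000371) and Gpc4 at 17.5, 13.1 and 16.9 CPM (-2.08 ± 0.29, adjusted p = 0.000159). For Sdc1, Sdc2 and Sdc4 each Aire value lay below every value of the other subsets, and for Gpc4 only the Plet1 value of the Foxn1Lin female library (11.5 CPM) was as low.

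Sdc2 was at 15.7, 13.8 and 14.4 CPM in Aire TEC (-1.44 ± 0.27, edgeR adjusted p = 0.00117, but 0.0530 without the wild type library). Gpc6 was at 7.86, 11.5 and 39.7 CPM (-2.35 ± 0.74, edgeR adjusted p = 0.0223), a call lost without Foxn1Lin male (-2.37, adjusted p = 0.0807) and with doubled gates (-1.50). Gpc1 did not follow the others: its Aire levels of 42.3, 24.6 and 56.1 CPM lay within the range of the other subsets (0.34 ± 0.30, edgeR adjusted p = 0.382).

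Gpc3 was called higher in Aire TEC, by 2.46 ± 0.72 (edgeR adjusted p = 0.0149), with 30.8, 10.00 and 22.0 CPM. In the Foxn1Lin female library the Plet1 and the other TEC reached 77.4 and 31.1 CPM, so the groups overlapped. The Aire values rested on few barcodes, found in 14 of 114, 7 of 64 and 23 of 152, and 1 barcode held 49.0%, 38.5% and 24.4% of the Gpc3 UMIs, and the call was lost without the wild type library (1.01, edgeR adjusted p = 0.378) and without the library block (1.24, adjusted p = 0.414). Without Foxn1Lin female it was larger (3.74). Empty droplets had more Gpc3 than Aire TEC in each library (69.8, 14.7 and 27.1 CPM), and their part in the call was not tested. The sum of the FB markers in Aire TEC was 184, 84.6 and 95.2 CPM, lower than in the other TEC (1295, 456 and 452 CPM).

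Plet1 TEC had the highest Sdc4 of the TEC subsets in both libraries labelled male. Sdc4 was at 485, 1379 and 1202 CPM, and in Foxn1Lin female the Psmb11 and the other TEC, with 502 and 525 CPM, were as high. Of the 9 members 2 were called higher in this subset and 0 lower (8.23% of all genes were higher, 3.37% lower and 11.6% called in either direction): Sdc4 by 1.56 ± 0.26 (edgeR adjusted p = 0.00269) and Gpc6 by 2.68 ± 0.57 (adjusted p = 0.0109). Set directly against Aire TEC, Sdc4 was 5.31-fold (95% counting interval 4.24 to 6.66), 17.1-fold (14.0 to 21.1) and 8.74-fold (7.94 to 9.64) higher in Plet1 TEC. Gpc6 was at 281, 283 and 339 CPM in Plet1 TEC, of similar size in the 3 libraries. Both calls were lost without Foxn1Lin male (1.22 and 2.23, edgeR adjusted p = 0.0530 and 0.106) and without wild type male (1.41 and 3.04, adjusted p = 0.117 and 0.0640).

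In each library Gpc5 was highest in the TEC that passed none of the gates, at 272, 456 and 561 CPM. Gpc5 and Gpc6 were the 2 members called higher in this subset and 0 were lower (5.17% of all genes were higher, 0.672% lower and 5.84% called), by 1.88 ± 0.47 and 2.59 ± 0.54 (edgeR adjusted p = 0.0378 and 0.0195). Gpc6 was at 207, 184 and 558 CPM there. The FB markers were also highest in these TEC among the subsets, and their part in Gpc6 was not tested. The Gpc5 call was lost with halved gates, where the difference shrank to 1.01 (edgeR adjusted p = 0.230), without the library block (1.82, adjusted p = 0.0685) and without each library in turn (1.63 to 2.22, adjusted p = 0.0519 to 0.215), and that of Gpc6 without Foxn1Lin male (2.60, adjusted p = 0.102) and without wild type male (2.36, adjusted p = 0.177).

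Psmb11 TEC had the highest Gpc4 and Gpc1 among the subsets in the libraries that entered the fit. Gpc4 was at 90.7 and 124 CPM in Foxn1Lin female and wild type male, and Gpc1 at 75.0 and 70.9 CPM. The 9 barcodes of Foxn1Lin male gave 96.2 CPM of Gpc4 and 41.2 CPM of Gpc1. Both were called higher and 0 members lower (11.4% of all genes were higher, 9.59% lower and 20.9% called), by 1.39 ± 0.27 and 1.37 ± 0.34 (edgeR adjusted p = 0.00523 and 0.0154). Without the wild type library neither was called (1.53 and 1.54, edgeR adjusted p = 0.169 and 0.172), and without Foxn1Lin female Gpc1 was not (1.10, adjusted p = 0.217), nor was it with halved gates (1.03, adjusted p = 0.0559). Each of these fits without a library holds 1 Psmb11 sum, which is assumed to vary like the sums of the other subsets.

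In Ccl21a TEC 1 member, Sdc1, was called higher and 0 lower, where 5.43% of all genes were higher, 2.83% lower and 8.26% called. Its level was 60.2, 79.7 and 83.9 CPM, a rise of 1.02 ± 0.27 (edgeR adjusted p = 0.0396) that was not called without Foxn1Lin male (0.77, adjusted p = 0.231), without wild type male (0.98, adjusted p = 0.359), with halved gates (0.95, adjusted p = 0.0570), with the highest Scrublet scores removed (0.93, adjusted p = 0.0521) or without the library block (0.96, adjusted p = 0.0718). Sdc3 reached its highest TEC value here in the wild type library, 49.1 CPM, beside 13.9 and 13.5 CPM in the others (1.41 ± 0.40, edgeR adjusted p = 0.0504). Gpc5 varied most between libraries in this subset, with 113, 13.5 and 291 CPM.

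Of the 13 called differences of TEC subsets, 5 were smaller by over 1.5 times with barcodes of more than 1 class kept: Sdc1 (-1.27) and Gpc3 (1.59) in Aire TEC, Gpc1 in Psmb11 TEC (0.60) and Gpc6 in Plet1 (1.94) and in other TEC (1.91). With halved gates Sdc4 and Gpc6 in Aire TEC were at -1.67 and -1.65 on the log2 scale, beside Gpc5 given above. Without Foxn1Lin female Gpc6 was at -1.58 in Aire TEC and 3.21 in other TEC, and without wild type male at -2.99 in Aire TEC.

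FB were heterogeneous for Gpc3 and Gpc4. They were described without a test by gates on Pi16 (at least 2 UMIs), a gene of adventitial fibroblasts, Smoc2 (at least 2) and Ptn (at least 5), which encodes the HS-binding cytokine pleiotrophin. Barcodes in more than 1 of these gates were left out. The gates held 199, 23 and 48 (Pi16), 530, 75 and 209 (Smoc2) and 301, 508 and 811 barcodes (Ptn). Gpc3 was at 296, 212 and 205 CPM in Pi16 FB, 203, 85.6 and 88.7 CPM in Smoc2 FB and 6.85, 4.70 and 1.47 CPM in Ptn FB. In each library the order was Pi16, Smoc2, Ptn, and the ratio of Pi16 over Ptn FB was 43.3 (95% counting interval 25.1 to 81.8), 45.1 (27.2 to 76.6) and 139 (74.5 to 288). The 5 mesothelial markers summed to 343, 299 and 198 CPM in Pi16 FB, 394, 168 and 296 CPM in Smoc2 FB and 20.6, 9.21 and 7.35 CPM in Ptn FB, with up to 3, 4 and 1 of the 5 at 0 in a library, and their part in the Gpc3 levels was not tested.

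Gpc1, Gpc4, Sdc1 and Sdc3 were highest in Ptn FB of the 3 gates in every library. Gpc4 went from 20.3, 33.2 and 24.5 CPM in Pi16 FB through 39.02, 52.3 and 79.1 CPM in Smoc2 FB to 79.6, 87.8 and 121 CPM in Ptn FB, and its ratio of Ptn over Pi16 FB was 3.91 (2.71 to 5.77), 2.64 (1.33 to 6.15) and 4.94 (2.81 to 9.59). Gpc1 was at 32.7, 20.4 and 44.2 CPM in Ptn FB and at 6.42, 7.93 and 16.6 CPM in Smoc2 FB. In Pi16 FB it was found by 1, 0 and 8 UMIs. Sdc1 was at 50.1, 45.8 and 63.9 CPM in Ptn FB and 11.1, 20.6 and 27.4 CPM in Smoc2 FB, and in Pi16 FB it was found by 15, 6 and 0 UMIs. Sdc3 was at 31.1, 23.3 and 51.8 CPM in Ptn FB and at 11.0, 8.31 and 10.2 CPM in Pi16 FB. The lowest Sdc1 of Foxn1Lin male was in Smoc2 FB, since its Pi16 FB had 24.9 CPM. Sdc2 stayed between 190.2 and 354 CPM in the 3 gates.

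Gpc6 was above 500 CPM in all 3 gates of every library, between 568 and 2174 CPM. Ptn FB had more of it than Pi16 FB in Foxn1Lin male (ratio 1.33, 1.17 to 1.52) and wild type male (2.35, 2.14 to 2.58), and less in Foxn1Lin female (0.854, 0.806 to 0.905). Sdc4 was highest in the FB of no gate, with 304, 339 and 291 CPM.

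**Figure D4:**
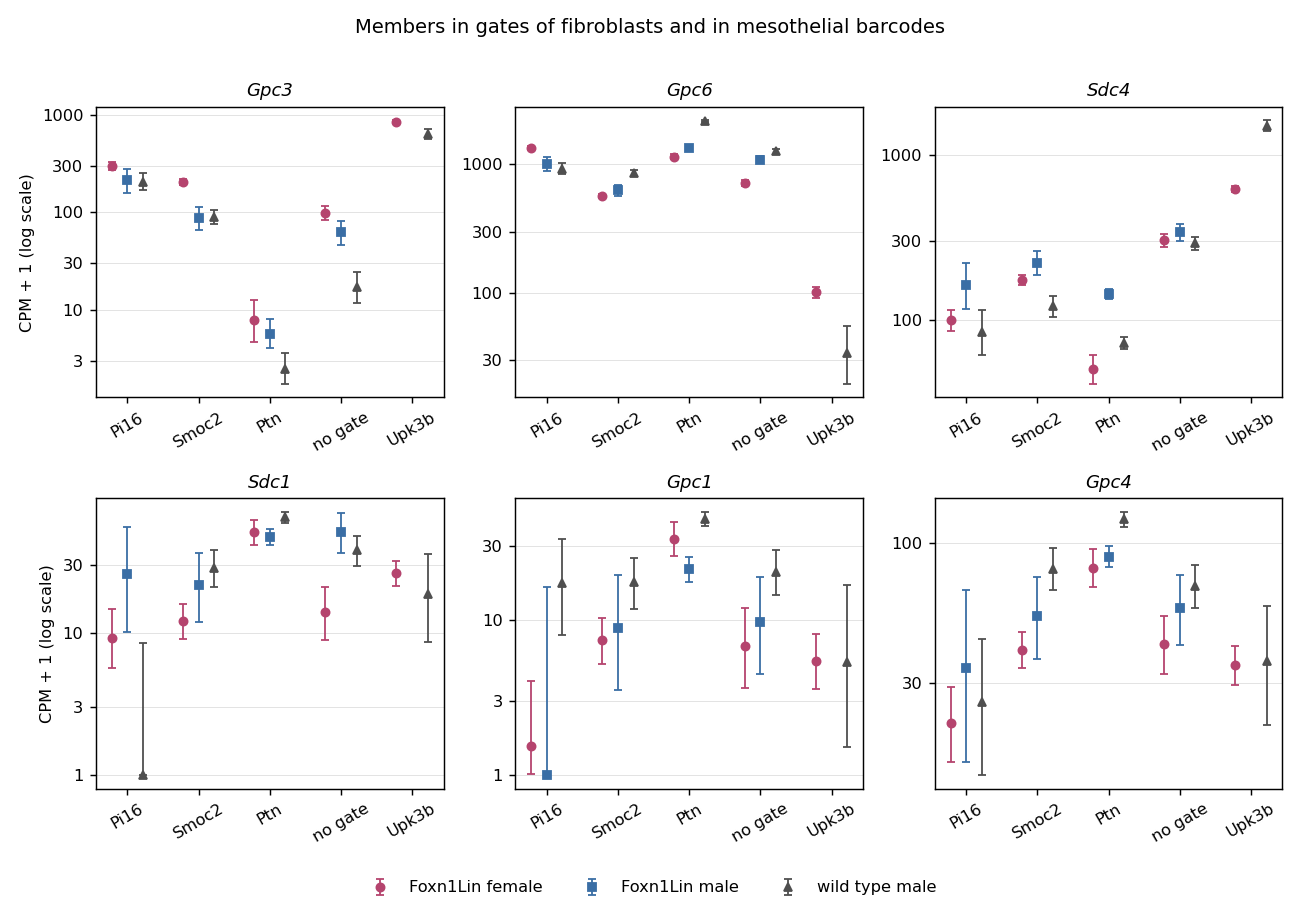
Levels (CPM + 1, log scale, scale set per panel) of 6 members in FB gated by Pi16, Smoc2 or Ptn, in FB of none of these gates, and in Upk3b barcodes outside the 4 classes; each point is 1 library and bars are 95% exact Poisson intervals. Gpc3 falls from 205 to 296 CPM in Pi16 FB to 1.47 to 6.85 CPM in Ptn FB, and the Upk3b barcodes have the highest Gpc3 and Sdc4.

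Upk3b barcodes, with at least 2 UMIs of this mesothelial gene and in none of the 4 classes, were found in the Foxn1Lin female (338) and wild type male libraries (36) and not in Foxn1Lin male (0). Their mesothelial markers summed to 4469 and 4285 CPM, but the FB markers to 9445 and 10292 CPM and the TEC markers to 1168 and 519 CPM, and the part of other cells in their levels was not tested. They carried 844 and 632 CPM of Gpc3, which was 4.13-fold (3.93 to 4.34) and 15.0-fold (13.0 to 17.3) the level of FB in the same library, and 94.4% and 91.7% of them held a UMI of it. Sdc4 stood at 620.0 and 1497 CPM, or 1.53-fold (1.45 to 1.62) and 2.39-fold (2.21 to 2.58) the level of TEC. Gpc6 was low, at 100.2 and 33.0 CPM, and Sdc3 gave 6 and 0 UMIs. Within the FB class the sum of the mesothelial markers was 347, 53.0 and 113 CPM.

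Mural cells were split by Myh11, a myosin of smooth muscle, at 2 UMIs or more (286, 347 and 288 barcodes) or fewer (147, 102 and 67). Gpc3 stood at 23.0, 24.9 and 23.2 CPM in Myh11 barcodes, where its values did not set the Foxn1Lin female library apart. It was at 140.4, 37.7 and 42.3 CPM in the remainder. The FB markers summed to 627, 848 and 629 CPM in the first and to 2653, 2347 and 3282 CPM in the second. The mesothelial markers summed to at most 47.5 CPM in the first and to 73.5 to 541 CPM in the second. Sdc3 had the same direction, with 8.91, 8.13 and 15.7 CPM in Myh11 barcodes and 18.8, 17.0 and 63.5 CPM in the remainder, from 9 to 31 UMIs each. The EC markers summed to 146, 42.9 and 19.7 CPM in Myh11 barcodes and to 534, 86.7 and 127 CPM in the remainder. The part of any of these marker lists was not tested.

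Across libraries each difference is a ratio of 2 libraries with a counting interval, and members are named where the ratio passed 2-fold with at least 20 UMIs over both. The median log2 ratio over all genes within a class lay between -0.14 and 0.14. Gpc3 was higher in Foxn1Lin female than in both others in all 4 classes: the ratios over Foxn1Lin male and wild type male were 6.03 and 5.28 in TEC, 118 and 4.02 in EC, 4.96 and 4.85 in FB, and 2.30 and 2.33 in mural cells. Empty droplets also held most Gpc3 in Foxn1Lin female (69.8, 14.7 and 27.1 CPM), above TEC and EC in each library. The mesothelial markers of FB were highest in that library too (347 CPM). Myh11 mural barcodes had 23.0 to 24.9 CPM of Gpc3 over the libraries. The part of free RNA and of mesothelial RNA was not tested. In TEC Gpc3 was the only member past 2-fold higher, where 12.8% (against Foxn1Lin male) and 11.6% (against wild type male) of all genes were. In FB the same held, with 13.2% and 11.7% of all genes, and in mural cells with 10.1% and 9.86%. In TEC 0 members were past 2-fold lower in Foxn1Lin female than in Foxn1Lin male (5.1% of all genes) and 0 higher in Foxn1Lin male than in wild type male (5.25%). In FB, Sdc1 was past 2-fold lower in Foxn1Lin female than in Foxn1Lin male (0.406; 5.94% of all genes).

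The makeup of FB differed between the libraries. Ptn FB were 16.1%, 58.8% and 47.3% of FB, Pi16 FB 10.6%, 2.66% and 2.80%, and Smoc2 FB 28.3%, 8.68% and 12.2%. Another 31.8%, 18.4% and 23.5% passed more than 1 of these gates and were left out of the gated levels. Within Pi16 FB the ratio of Gpc3 in Foxn1Lin female over Foxn1Lin male was 1.40 (1.05 to 1.90) and over wild type male 1.45 (1.17 to 1.81), and within Smoc2 FB it was 2.37 (1.80 to 3.18) and 2.29 (1.91 to 2.76), against 4.96 and 4.85 in all FB. Within Ptn FB, from 13, 24 and 11 UMIs, it was 1.46 (0.681 to 2.98) and 4.66 (1.93 to 11.5), and within FB of no gate 1.60 (1.15 to 2.25) and 6.04 (4.01 to 9.39). The same libraries also differed in sex label, genotype and depth.

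Sdc3 was lower in both Foxn1Lin libraries than in wild type male, past 2-fold, in TEC, FB and mural cells. The ratios of Foxn1Lin female and Foxn1Lin male over wild type male were 0.281 (0.197 to 0.389) and 0.442 (0.331 to 0.582) in TEC. In FB they were 0.365 (0.314 to 0.423) and 0.446 (0.375 to 0.527), and in mural cells 0.493 (0.297 to 0.797) and 0.395 (0.242 to 0.632). In EC, where Sdc3 was highest, they were 0.920 (0.827 to 1.02) and 0.629 (0.555 to 0.713). In empty droplets Sdc3 was also lower in both Foxn1Lin libraries (31.0 and 24.3 against 52.4 CPM), and the levels in TEC, FB and mural cells lay below those of the empty droplets; the part of free RNA was not tested. In TEC Gpc6 was the other member past 2-fold lower in both, with ratios of 0.337 (0.311 to 0.364) and 0.418 (0.388 to 0.450), where 7.83% and 9.9% of all genes were past 2-fold lower. The empty droplets held Gpc6 at nearly the TEC levels and in the same order (95.4, 133 and 289 CPM), and their part in this difference was not tested. In FB, Foxn1Lin female against wild type male had 4 members past 2-fold lower (Sdc1, Sdc3, Gpc1 and Gpc4), where 9.17% of all genes were. Foxn1Lin male against wild type male had 2 (Sdc3 and Gpc1), where 7.81% were. The largest of these was Gpc1 in Foxn1Lin female, with a ratio of 0.281 (0.233 to 0.337). The 4 members named for Foxn1Lin female were highest in Ptn FB among the gates. Ptn FB were 16.1% of FB there and 47.3% in wild type male. Within Ptn FB these libraries had 50.1 and 63.9 CPM of Sdc1 and 31.1 and 51.8 CPM of Sdc3. Gpc1 was at 32.7 and 44.2 CPM, and Gpc4 at 79.6 and 121 CPM. Within Smoc2 FB Sdc1 was at 11.1 and 27.4 CPM and Sdc3 at 18.5 and 35.1 CPM. Gpc1 was at 6.42 and 16.6 CPM there, and Gpc4 at 39.02 and 79.1 CPM. The part of FB makeup was not tested. In mural cells Sdc3 was past 2-fold lower in both (8.38% and 7.45% of all genes), and so was Gpc5 in Foxn1Lin female, on few UMIs (0.451, 0.145 to 1.21).

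**Figure D5:**
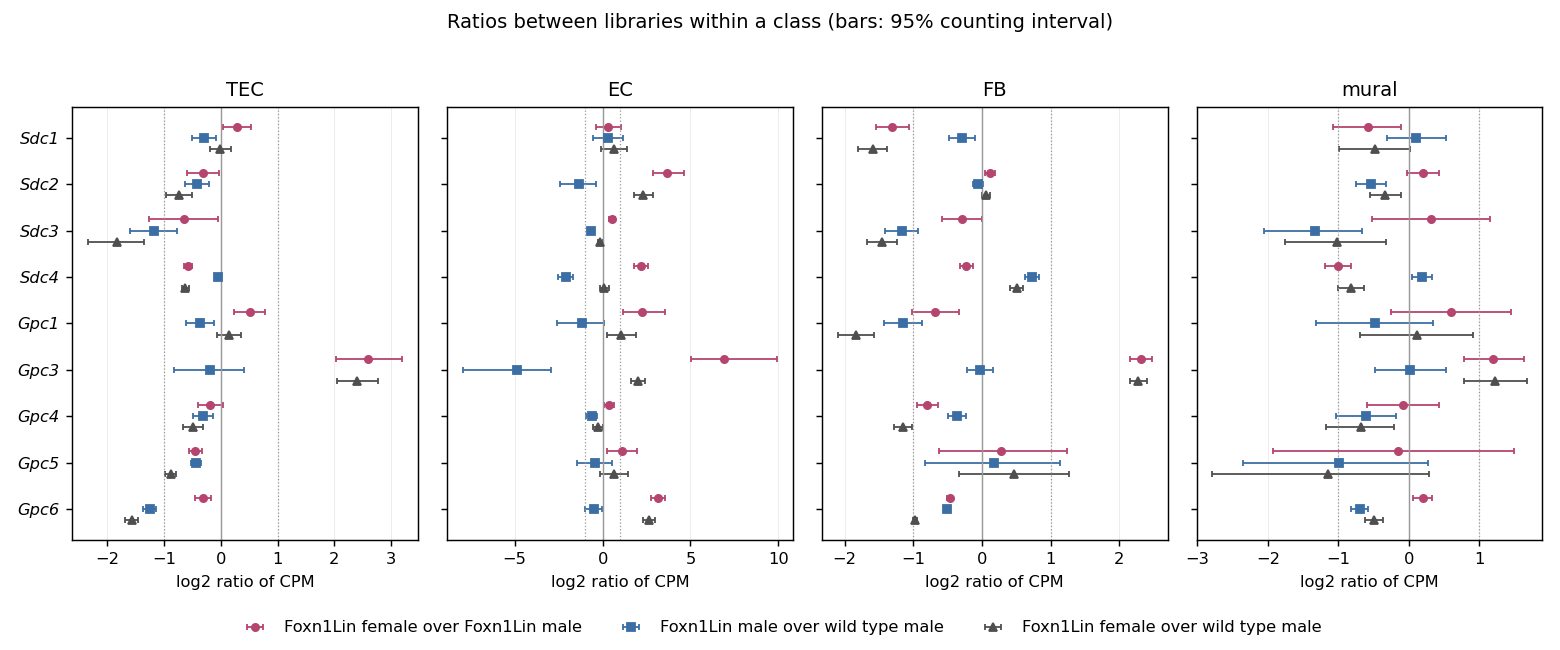
log2 ratio of the CPM of each member between pairs of libraries within a class (x axis, scale set per panel), with 95% counting intervals; dotted lines mark 2-fold. The points of Gpc3 for Foxn1Lin female over either other library lie right of the 2-fold line in every panel.

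In EC more members passed 2-fold. Foxn1Lin female exceeded Foxn1Lin male for 6 of 9 (Sdc2, Sdc4, Gpc1, Gpc3, Gpc5 and Gpc6), where 15.2% of all genes were past 2-fold higher, and wild type male for 4 (Sdc2, Gpc1, Gpc3 and Gpc6), where 14.4% were. The largest were Gpc3 over Foxn1Lin male, from 301 and 2 UMIs, and Sdc2, with a ratio of 12.9 (7.37 to 24.6). Foxn1Lin male was past 2-fold lower than wild type male for 4 (Sdc2, Sdc4, Gpc1 and Gpc3), where 7.32% of all genes were. In EC 0 members were past 2-fold lower in Foxn1Lin female than in Foxn1Lin male (3.83% of all genes) or in wild type male (6.02%). The FB, mesothelial and TEC marker sums of EC, given above, differed between the libraries in the same order as Sdc2, Sdc4, Gpc1, Gpc3, Gpc5 and Gpc6.

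The enzymes that build and edit the HS chains, the partners of the tails and the ligands were counted from lists of genes. Of 11 genes of chain linkage and synthesis, 2 were higher and 5 lower in TEC than in EC, and 1 was higher and 6 lower in TEC than in FB. Of 14 tested genes of chain modification, 6 were higher and 4 lower in TEC than in EC, and 6 higher and 2 lower than in FB. Of 8 tested genes of chain editing and core protein release, 5 were higher and 2 lower in TEC than in EC, but 1 was higher and 5 were lower in TEC than in FB, and 6 were higher and 0 lower in FB than in mural cells. All 7 genes of cytoplasmic partners of syndecans were called between TEC and EC, 3 higher and 4 lower. Sdcbp, the gene of syntenin, was lower in TEC (73.2, 149 and 120.0 CPM) than in EC (236, 335 and 319 CPM), with a log2 fold change of -1.79 ± 0.12 (edgeR adjusted p = 7.24e-06), and was lowest in Aire TEC (47.1, 49.2 and 60.0 CPM, -1.22 ± 0.18, adjusted p = 0.000214). Of 6 other genes of HS proteoglycans, 1 was higher and 3 were lower in TEC than in EC. The shares of all genes called in these comparisons are those given above for the members.

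Among the genes with the largest changes were some that were higher in TEC. Hs3st5, a 3-O-sulfotransferase, was at 30.3, 29.2 and 30.3 CPM in TEC, while FB had 0.478, 0.348 and 0.458 CPM (5.79 ± 0.68 on the log2 scale, edgeR adjusted p = 0.00012). Hs6st3, a 6-O-sulfotransferase, exceeded EC by 4.67 ± 0.46 (edgeR adjusted p = 4.08e-05). Hpse2, a heparanase relative that binds HS without cutting it, was at 168, 129.98 and 276 CPM in TEC, while EC had 11.1, 1.71 and 2.40 CPM (5.21 ± 1.01, edgeR adjusted p = 0.00191). In the other direction Nrp1, a receptor that can itself carry HS, was at 672, 557 and 783 CPM in EC, with TEC lower (-5.35 ± 0.20, edgeR adjusted p = 1.06e-06).

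Of 13 HS-binding ligands, 3 were higher in EC than in FB and 8 lower, where 42% of all genes were called. In TEC against mural cells 1 was higher and 5 were lower, where 50.5% of all genes were called. Pdgfb, the endothelial signal to mural cells, was at 214, 120.0 and 166 CPM in EC and exceeded FB by 6.81 ± 0.44 (edgeR adjusted p = 1.16e-05). Hbegf exceeded FB by 4.84 ± 0.25 in EC (edgeR adjusted p = 5.23e-06). In FB, Fgf10 (147, 124 and 205 CPM) and Fgf7 (45.9, 37.2 and 35.0 CPM), growth factors for TEC, were higher than in EC, with log2 fold changes of EC over FB of -6.60 ± 0.76 and -5.48 ± 0.47 (edgeR adjusted p = 0.000157 and 3.52e-05). Ptn was at 534, 2589 and 2155 CPM in FB, with TEC lower (-4.97 ± 0.64, edgeR adjusted p = 0.000198). Fgf1 and Pdgfa were highest in mural cells, with log2 fold changes of EC over mural cells of -4.79 ± 0.41 and -4.09 ± 0.24 (edgeR adjusted p = 3.8e-05 and 1.24e-05).

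Genes whose levels ran most like each member were ranked by Pearson's r of log2(CPM + 5) over 23 sums (EC, FB, mural and the 5 TEC subsets of each library, less 1 small sum), among 16617 genes. The sums share libraries and the values are descriptive. For Sdc1 they were Pard3 (r = 0.91), Notch2 (0.88) and Rnd3 (0.87), for Sdc2 Chpf (0.92), Lrp1 (0.92) and Kirrel (0.91), for Sdc3 Trim30a (0.90), Mtmr2 (0.88) and Tasor (0.86), and for Sdc4 Hspb8 (0.93), Cep170b (0.91) and Ddr1 (0.90). Among the glypicans they were Vma21 (0.91), Hunk (0.88) and Igdcc4 (0.88) for Gpc1, Rarres2 (0.92), Tmem119 (0.88) and Tnxb (0.88) for Gpc3, and Focad (0.95), Chic1 (0.91) and Art4 (0.91) for Gpc4. For Gpc5 they were Tmprss2 (0.93), Upb1 (0.91) and Fat2 (0.91), and for Gpc6 Pdzrn3 (0.91), Slc41a2 (0.86) and Sox5 (0.85). Chpf, the gene most like Sdc2, encodes a subunit that lengthens chondroitin chains.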

How the data were processed

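The authors aligned the reads with Cell Ranger (7.01 per the submitters' notes, 7.0.1 in the header of the called matrices; builds GRCm38.p5 and mm10 are named) and deposited UMI counts per gene and barcode for 3 libraries of CD45- thymic stroma. Introns took 21.7%, 24.5% and 27.5% of reads per the deposited summaries, and whether they entered the counts is not given in the sources used here, which bears on the long genes Gpc5 and Gpc6. The members and gene lists were chosen with earlier results of these data known.

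Barcodes with both 1000 genes or fewer and at least 20% mitochondrial UMIs were removed (138, 149 and 222). Doublets were not called in the main values, since Scrublet's automatic threshold marked 0, 15 and 1 barcodes; removing the 3.9% with the highest scores was an alternative. Counts were summed per library and class and fitted with edgeR 4.0.16 (R 4.3.3, limma 3.58.1). The fit used TMM, filterByExpr, the quasi-likelihood test and library as block, with an adjusted p threshold of 0.05 and sums of at least 10 barcodes. It was also run on simulated counts with equal class means outside planted genes and no library effect. That setting is simpler than these data, and nothing is drawn from it here. The SE of a log2 fold change was derived from the F statistic. CPM carry 95% exact Poisson intervals, shares Clopper-Pearson intervals and ratios exact conditional intervals (scipy 1.17.1). Groups under 20 barcodes were not described outside the classes.

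Genes were named by a rule: the 9 members, the 3 genes most like each, and, from the lists, the called genes with the largest changes that went the same way in 3 of 3 libraries, up to 4 a direction, of which a selection is printed; Sdcbp was added for its role. The lists were HS linkage and chain synthesis, HS modification, HS editing and core protein release, cytoplasmic partners of syndecans, other HS proteoglycans and HS-binding ligands. Alternatives were DESeq2 1.42.0, total UMIs without TMM, no filter on low counts, no cell quality filter, halved and doubled gates, barcodes in 2 classes kept, no library block and leaving out each library. Sequences and positions were read from the GRCm38 reference with GENCODE annotation.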

Additional observations from a re-analysis of the deposited data

Results flagged for a closer look

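The order of classes differed in direction between libraries for a pair of results, without a test of the difference, since each group is 1 library. The ratio of Sdc1 in FB over mural cells was 0.592 in the Foxn1Lin female library and 1.28 in the wild type male library. The ratio of Gpc3 in TEC over EC was 17.7 in the Foxn1Lin male library (30 and 2 UMIs) and 0.685 in the wild type male library, where 1 EC barcode held 79.3% of the UMIs.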

How the results depend on the processing

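Of the 48 member differences called, 0 changed direction under any alternative. The calls lost numbered 0 under DESeq2, without the low-count filter and without the cell quality filter, 1 each without TMM, with doubled gates and after removal of the highest Scrublet scores, 4 with halved gates, 5 with barcodes in 2 classes kept, 2 without Foxn1Lin female, 12 without Foxn1Lin male and 18 without wild type male. Without the replicate block 9 were lost: Sdc2 (1.62) of TEC over EC; Gpc4 (-0.69) of TEC over FB; Gpc1 (1.31) and Gpc3 (-1.94) of TEC over mural; Gpc3 of EC over FB (-2.86) and over mural (-1.52); Gpc3 in Aire (1.24), Sdc1 in Ccl21a (0.96) and Gpc5 in the other TEC (1.82). The cause was not tested. The differences that changed sign were all uncalled. Without TMM this was Gpc3 of TEC over EC (0.13). Without the filter they were Sdc1 of FB over mural (0.071) and in other TEC (0.019), and without the block Gpc3 in Psmb11 TEC (0.25). With halved gates it was Gpc6 in Psmb11 TEC (0.025). With doubled gates they were Gpc3 of TEC over EC (0.56) and in other TEC (-0.066), Sdc1 of TEC over mural (-0.0085) and Sdc3 in other TEC (-0.031). With barcodes in 2 classes kept they were Gpc3 of TEC over EC (0.10), in Plet1 (-0.28) and in other TEC (-0.10), Gpc4 of EC over mural (0.052), Sdc1 (0.17) and Gpc1 (-0.061) of FB over mural, and Sdc3 in other TEC (-0.14). Leaving out 1 library turned Sdc1 for TEC over FB (-0.35 to 0.37), TEC over mural (-0.22 to 0.26), FB over mural (-0.25 to 0.13), Psmb11 (-0.14 to 1.07) and other TEC (-0.33 to 0.23), each without Foxn1Lin female, as for Gpc3 in Plet1 (-0.74 to 0.98). Without Foxn1Lin male it turned Gpc5 in Ccl21a (-1.51 to 0.26) and Gpc3 in other TEC (-0.25 to 0.94), and without wild type male Gpc3 of TEC over EC (-0.67 to 0.20), Gpc5 of EC over mural (-0.82 to 0.22) and Gpc6 in Ccl21a (-3.18 to 0.39).

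Counts of members called that moved by over 1.5 times were, for TEC over mural (4), 2 without the block and 1 to 5 without a library; for FB over mural (1), 2 with DESeq2, 2 without the filter, 5 with barcodes in 2 classes kept and 1 to 6 without a library; for Psmb11 (2), 4 with DESeq2, 1 with halved gates, 4 with 2 classes kept and 0 to 2 without a library. For Ccl21a (1) they were 3 with DESeq2, 2 without TMM, 2 without the filter, 0 without the block, 3 with doubled gates, 2 with 2 classes kept and 0 to 3 without a library; for Plet1 (2), 4 with doubled gates and 0 to 2 without a library; for other TEC (2), 4 without the filter, 1 without the block, 1 with halved gates, 4 with 2 classes kept and 0 to 2 without a library. Over all genes, calls for TEC over mural (8394) were 3025 with 2 classes kept and 5052 to 7529 without a library, and for FB over mural (4979) 3045 without the block, 8568 with 2 classes kept and 2146 to 4431 without a library. Without a library they were 4162 to 6601 for EC over FB (6977), 3469 to 6286 for EC over mural (6607), 3485 to 6637 for Aire (6544) and 222 to 1364 for Plet1 (1640). For Psmb11 (2961) they were 1819 without the block, 1847 with halved gates, 4670 with 2 classes kept and 328 to 2337 without a library. For Ccl21a (1167) they were 1772 with DESeq2, 569 without the block, 610 with 2 classes kept and 32 to 1015 without a library. For other TEC (826) they were 1738 without the filter, 292 without the block, 334 with halved gates, 1642 with 2 classes kept and 56 to 828 without a library. Of 432 CPM values under other settings, 103 moved beyond their interval, as did 176 of 216 shares of barcodes with a UMI and 10 of 108 ratios between libraries. Where a member rested on few UMIs (Gpc3 in EC and in TEC subsets, Gpc1 in EC), depth limits what can be read.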

Other observations

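Barcodes that passed none of the class gates and no other gate (2799, 673 and 948) carried 55.6, 30.1 and 213 CPM of Gpc5. In these barcodes the TEC markers summed to 882, 792 and 1438 CPM and the FB markers to 7088, 7694 and 6303 CPM. Gpc6 stood at 800.4, 923 and 923 CPM in them and Sdc2 at 181, 169.6 and 159 CPM, so that unassigned barcodes held part of the expression of these members.

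Among the members themselves, the levels of Sdc1 and Sdc4 ran together over the 23 sums (Pearson r = 0.82), as did those of Sdc2 and Gpc6 (r = 0.81). Sdc3 and Sdc4 had a moderate negative correlation (r = -0.50), with EC highest in Sdc3 and lowest in Sdc4. The sums share libraries, and the values are a description.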
